A study of Mus musculus with 30 samples.

Results

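The comparison described here is that of mouse mesenchymal stem cells (MSCs) treated with CK666 for 24 h with untreated MSCs, measured by ATAC-seq in 3 libraries of each group. These are 6 of the 30 libraries of the series, and they were taken by their labels. CK666 is a small molecule that inhibits the Arp2/3 complex, and ATAC-seq counts the cuts that a transposase makes in accessible DNA. The study asked how actin structure in and around the nucleus bears on chromatin accessibility. Both groups are marrow-derived MSCs of male C57BL/6J mice, and the labels of the controls name no treatment or solvent. The labels give no dose of CK666. The methods describe a primary line made from the marrow of several mice, and nothing says whether the 3 libraries of a group came from separate cultures, so that p-values measure only the spread between these libraries. Where cytochalasin D (CytoD, an inhibitor of actin polymerization, 24 h) or the separate 4 h experiment with CK666 is used below, each group also held 3 libraries of the same kind of cells.

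The Arp2/3 complex starts new actin filaments as branches on the sides of existing ones, and it is switched on by the WASP and WAVE families of activators, whereas formins extend unbranched filaments. Actin state reaches gene regulation by several known routes. Free actin monomers hold the coactivator MRTF away from serum response factor (SRF), which binds the CArG box. Tension on the actin network lets YAP and TAZ enter the nucleus, where they act with TEAD factors, often beside AP-1, a dimer of FOS and JUN proteins. A separate route is the integrated stress response, in which the factors ATF4 and CHOP bind a composite C/EBP-ATF site at genes of amino acid supply and protein folding. MSCs can become adipocytes or osteoblasts, and for this reason the genes of both fates are of interest in these cells.

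Accessibility was measured in windows of at least 500 bp, whose deposited counts were compared by the quasi-likelihood test of edgeR, and its p-values were adjusted after Benjamini and Hochberg over all windows. A window was called gained or lost when its adjusted p was under 0.01 and its log2 fold change was beyond 1. All positions are on GRCm38 and genes are protein-coding genes of GENCODE vM21. A window without a transcription start site (TSS) was given to the gene whose TSS lay closest, up to 50 kb away. The sequences on which the results below turn are short matches in the central 200 bp of a window, read on both strands. The first is the C/EBP-ATF site, written TTGCATCA, which was found in 11.9% of the gained and 0.408% of the lost windows, against 1.08% of all tested windows. The other pair is the TEAD site, written ACATTCC, and the AP-1 site, written TGANTCA, where N is any base. They were found in 12% and 31.6% of the lost windows, against 4.79% and 17.4% of all tested windows. These 4 stretches are shown because they are gained windows with a C/EBP-ATF site, given in capitals, at genes named below. All sequences are from the RefSeq copy of GRCm38, and each is printed on the strand on which the site reads as spelled.
Tmcc1 intron, chr6:116178915-116179022, plus strand: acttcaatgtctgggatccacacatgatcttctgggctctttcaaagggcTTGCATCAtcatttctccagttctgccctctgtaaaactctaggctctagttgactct
Nrcam intron, chr12:44353261-44353368, minus strand: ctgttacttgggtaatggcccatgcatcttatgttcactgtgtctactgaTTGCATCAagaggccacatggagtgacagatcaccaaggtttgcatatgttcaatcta
Dnajb9 intergenic, chr12:44198226-44198333, plus strand: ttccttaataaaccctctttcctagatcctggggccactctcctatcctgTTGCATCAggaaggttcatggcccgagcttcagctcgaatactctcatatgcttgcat
Sesn2 intergenic, chr4:132514060-132514167, plus strand: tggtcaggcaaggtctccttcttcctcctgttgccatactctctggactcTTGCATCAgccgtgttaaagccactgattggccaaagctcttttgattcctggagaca

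The next 6 stretches are lost windows, shown for the TEAD site in the first 4 and for the AP-1 site in the last 2, again in capitals. The stretch in Nid1 holds 3 TEAD sites, of which 1 reads on the other strand.
Cald1 intron, chr6:34691575-34691681, plus strand: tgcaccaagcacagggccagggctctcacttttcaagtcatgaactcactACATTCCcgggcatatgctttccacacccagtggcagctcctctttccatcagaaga
Nid1 intron, chr13:13473015-13473121, plus strand: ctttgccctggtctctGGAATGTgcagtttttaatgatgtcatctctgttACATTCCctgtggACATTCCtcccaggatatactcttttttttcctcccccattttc
Diaph3 intron, chr14:86757296-86757402, minus strand: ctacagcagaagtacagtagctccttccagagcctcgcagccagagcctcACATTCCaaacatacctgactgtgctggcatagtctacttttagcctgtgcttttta
Frmd4a intron, chr2:4339343-4339449, plus strand: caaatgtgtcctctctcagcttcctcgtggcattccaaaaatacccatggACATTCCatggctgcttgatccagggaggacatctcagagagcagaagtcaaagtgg
Gpc4 intergenic, chrX:52221727-52221833, plus strand: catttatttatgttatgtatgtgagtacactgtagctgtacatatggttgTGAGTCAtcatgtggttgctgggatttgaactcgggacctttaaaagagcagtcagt
Me1 intergenic, chr9:86709259-86709365, plus strand: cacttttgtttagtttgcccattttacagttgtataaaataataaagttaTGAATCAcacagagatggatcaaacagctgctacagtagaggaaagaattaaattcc

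Of 300323 tested windows, 2.94% were called, 1.88% as gains (5641 windows) and 1.06% as losses (3184 windows). Total counts were 14122298 to 22352180 in the controls and 19536094 to 21259528 with CK666, and control replicate 1 was the shallowest library. Replicates had rank correlations of 0.882 to 0.912. In simulated counts of this design, changes were given only to windows with a mean of at least 20 counts. Of these, 98 of 100 given a log2 fold change of 2 were called, and 63 of 100 given a change of -2. Recovery in shallower windows was not tested. The stromal label was checked at the deepest tested TSS window of each marker gene, which 7 of 12 stromal markers had. The stromal markers Eng, Thy1, Nt5e, Ly6a and Lepr had no such window. Over the 7 markers, normalized counts per kb summed to 1636 to 1782 in the controls and 1585 to 1644 with CK666. Sums over different numbers of markers cannot be compared between cell types. Of 9 haematopoietic markers, Csf1r, Adgre1 and Cd68 had a tested TSS window, with sums of 128 to 191 in the controls and 118 to 129 with CK666, while Ptprc, Spi1, Cd3e and Gata1 were among those that had none. Sums were 80.6 to 98.1 and 91.8 to 117 over 2 of 5 endothelial markers, 12 to 32.0 and 10.4 to 22.0 at Epcam alone of 4 epithelial markers, 15.7 to 46.6 and 28.2 to 44.5 over 2 of 3 muscle markers, 269 to 288 and 295 to 332 over 3 chondrocyte markers, and 285 to 325 and 287 to 410 over 3 of 4 adipocyte markers. None of these deepest windows was called, although a shallower TSS window of the adipocyte marker Plin1 gained (log2 fold change 1.51). The part of other cells in the results was not tested, and in bulk libraries fewer cells of a type and less open chromatin per cell cannot be told apart.

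Gains and losses both lay mostly in introns and intergenic DNA, as did the tested windows. Introns held 48.1% of gains and 40.8% of losses, against 46.4% of tested windows. Intergenic DNA held 47.8% and 56.2%, against 44.1%. Of the called windows, 92 gained and 37 lost ones contained a TSS, which is 0.552% and 0.222% of the 16680 tested TSS windows, although these windows were deep, with a median of 172 normalized counts in the controls against 20.2 for intergenic windows. Introns held 2715 gains and 1298 losses (1.95% and 0.931% of their windows), and intergenic DNA 2694 gains and 1788 losses (2.03% and 1.35%). Coding exons held 52 gains and 26 losses (0.873% and 0.437% of 5954 windows), and untranslated parts 88 and 35 (1.54% and 0.611% of 5732). The share of windows called rose with the distance from the nearest TSS. It went from 1.53% gained and 0.645% lost within 5 kb to 2.10% and 1.37% between 50 and 200 kb, and reached 2.37% and 1.75% beyond 200 kb. With the GC trend of each library removed, TSS windows made up 3.16% of the losses in place of 1.16%, and their share of the gains was 1.56% in place of 1.63%, so that the order of the shares turned round.

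**Figure D1:**
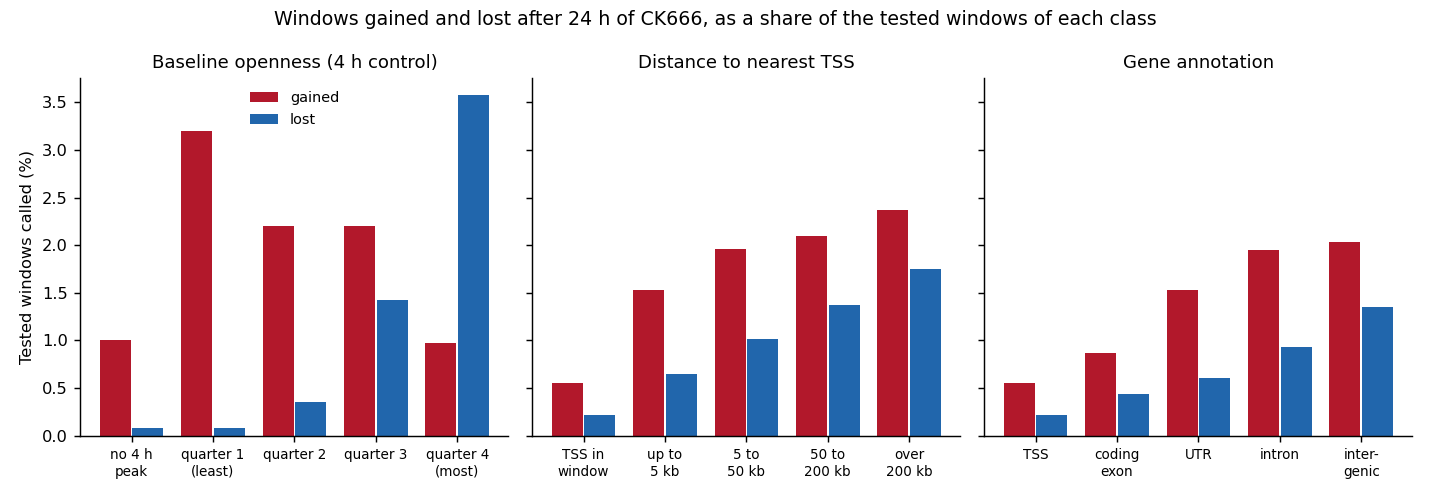
Percent of tested windows called gained (red) or lost (blue) after 24 h of CK666, by openness in the 4 h controls, by distance to the nearest TSS and by gene annotation. Gains peaked in the least open class at 3.20% and losses in the most open class at 3.57%, and among the distances and annotations both were rarest in windows with a TSS.

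Whether a window was called gained or lost went with how open it was in untreated cells, within limits given below. To keep this measure apart from the comparison itself, openness was taken from the 3 control libraries of the 4 h experiment, as the count per kb over all 4 h peaks that overlap the window, and the windows with such a peak were split into 4 openness classes of equal size. In the least open class, 3.20% of windows gained and 0.0765% lost. The most open class showed the reverse, with 0.968% gained and 3.57% lost. The classes between them gained in 2.20% of windows each, and their losses went from 0.356% to 1.43%. Windows with no 4 h peak, which could not be placed in a class, gained in 1.01% and lost in 0.0825%. The most open class held 64.5% of all losses and 9.87% of all gains, and the least open class 32.6% of the gains and 1.38% of the losses. The shares of gains depend on the libraries that set the classes. With classes from the 24 h controls, which also enter the comparison, the most open class held 83.9% of losses and 18.6% of gains, and 2.59%, 1.38%, 2.14% and 1.40% of windows gained from the least to the most open. Called gains had a median log2 fold change of 1.96 in the least open and 1.26 in the most open class. Called losses had medians of -1.65 and -1.20. A window with few counts needs a larger change to be called, so these medians do not show that gains themselves were larger there. The median window of the least open class had 14.8 normalized counts in the controls, so few falls there could be called. The filter on low counts went by group, so a window low in the controls could enter through treated libraries alone. Classes from the 4 h controls remove neither limit. How far these limits set the shares of each class was not tested. Over all windows of a class, called or not, the median log2 fold change was 0.14, 0.02, -0.04 and -0.06 from the least to the most open.

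Within windows that hold a TSS, the share of gains fell from class to class with openness (2.0%, 1.63%, 1.09% and 0.0682%), whereas the share of losses was highest in the second most open class (0.322%). Of the 10257 TSS windows in the most open class, 7 gained and 27 lost (0.263%), and 26 of 1302 in the least open class gained and 0 lost. Outside TSSs, the most open class lost in 4.29% and gained in 1.16% of windows. At the level of whole libraries these shifts were small. The least open class took 5.75%, 5.06% and 4.79% of the counts in the controls and 5.93%, 6.32% and 5.81% with CK666, a difference of 0.821 percentage points with no overlap of the groups (exact two-sided permutation test, p = 0.1, the smallest that 3 against 3 libraries can give). The filter limit given above holds here too, as low windows could enter this class through treated libraries alone. The direction of this difference is thus no separate support, and the part of the filter in it was not tested. The most open class took 66.0%, 68.5% and 69.1% of the counts in the controls and 66.2%, 64.9% and 66.5% with CK666, and these ranges overlapped (exact p = 0.3). Windows with a TSS took 26.7% ± 0.384 (SD, n = 3) in the controls and 27.5% ± 0.599 (SD, n = 3) with CK666 (exact p = 0.2), and windows without a 4 h peak took 4.83% ± 0.701 and 5.22% ± 0.340 (exact p = 0.5).

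The windows with the largest gains had few counts in control cells and many in all 3 treated libraries. A window in an intron of App, the amyloid precursor protein gene (chromosome 16 from 85069918 to 85070564), had 22.1, 16.2 and 22.3 normalized counts in the controls and 324, 302 and 313 with CK666. It was the largest gain of the second most open class, with a log2 fold change of 3.96 (standard error 0.20, edgeR adjusted p = 7.85e-29). A window in an intron of Sash1, a scaffold protein gene (chromosome 10 from 8811693 to 8812425), went from 18.2, 30.7 and 10.7 to 259, 225 and 258 normalized counts, a log2 fold change of 3.61. The rule put it in the most open class, although the 4 h peak that covers most of it had 31.0, 24.2 and 32.1 normalized counts in the 4 h controls. Windows were named by a rule that asks for groups that do not overlap. Other gains chosen by size had Tpd52, Plscr5, Epha7 and Grik1 as the closest gene, with log2 fold changes between 4.14 and 4.72. The Grik1 window lies in an intron of that gene. The other windows are intergenic, 113089 bp (Tpd52), 52866 bp (Plscr5) and 703736 bp (Epha7) from the TSS. These distances are beyond the limit of 50 kb, so these windows were given to no gene.

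**Figure D2:**
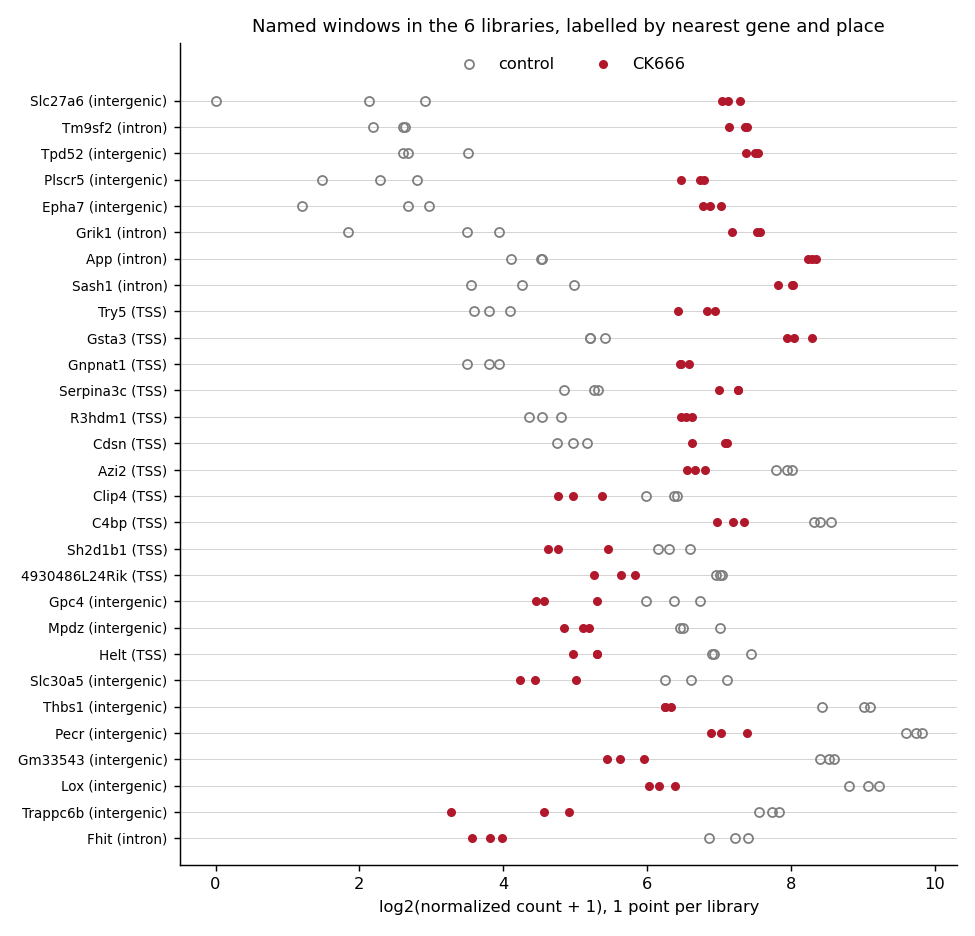
Log2(normalized count + 1) of named windows in the 3 control (open circles) and 3 CK666 libraries (red points), labelled by the nearest gene and the place of the window. The windows were chosen for groups that do not overlap, and the gains at the top of the plot start from control values below 4.

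Besides narrow windows in an intron of Fhit, 751264 bp from its TSS, and near Trappc6b, the losses chosen by size were broad windows. These narrow windows had 584 and 570 bp and log2 fold changes of -3.46 and -3.39. Near Pecr, an enzyme of fatty acid metabolism, an intergenic window of 2347 bp, 25959 bp from its TSS (chromosome 1 from 72255954 to 72258300) had 771, 904 and 849 normalized counts in the controls and 129, 166 and 118 with CK666, a log2 fold change of -2.61 (edgeR adjusted p = 4.46e-34). A window of 3110 bp, 15490 bp from the TSS of Thbs1, which encodes the matrix protein thrombospondin 1 (chromosome 2 from 118127366 to 118130475), went from 548, 343 and 515 to 74.9, 74.8 and 79.6. A window of 4634 bp near Lox, the enzyme that crosslinks collagen and elastin, 12800 bp from its TSS on chromosome 18, went from 597, 445 and 536 to 82.4, 64.4 and 70.8. The log2 fold changes of the Thbs1 and Lox windows were -2.61 and -2.85. In the 4 h experiment, with its own controls, they were -2.45 and -1.94, and that of the Pecr window was -1.24. Also among the losses chosen by size was a window near Gm33543, from 338, 367 and 385 to 60.9, 42.6 and 48.2, whose 4 h log2 fold change was -0.04. The CytoD log2 fold changes of the Pecr, Thbs1, Lox and Gm33543 windows, against the same controls, were -1.75, -0.94, -0.64 and -1.0.

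Called TSS windows belonged to genes of diverse roles. The gained TSS of Gsta3, a glutathione transferase (chromosome 1 from 21240226 to 21240783), had 41.6, 35.8 and 35.7 normalized counts in the controls and 311, 244 and 263 with CK666, a log2 fold change of 2.86 (standard error 0.17, edgeR adjusted p = 1.19e-23). At Gnpnat1, an enzyme of the hexosamine pathway (chromosome 14 from 45385478 to 45386076), counts went from 13, 10.2 and 14.3 to 88.0, 87.0 and 94.3, and this window holds a C/EBP-ATF site. Further gains were at Try5, Serpina3c, R3hdm1 and Cdsn, with log2 fold changes of 2.99, 2.06, 2.0 and 2.0. The lost TSS window with the largest change was that of Helt, a transcription repressor (chromosome 8 from 46293601 to 46294182), from 121, 118 and 173 to 38.4, 30.5 and 38.3 normalized counts, a log2 fold change of -1.95. The TSS windows of 4930486L24Rik, Sh2d1b1, C4bp, Clip4 and Azi2 followed, between -1.42 and -1.25.

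The motif search covered 23 known sites. They were chosen after the files had been opened, and a match is a description of the letters, not of binding. The C/EBP-ATF site stood apart among gains. Of the 3243 tested windows that hold it, 670 gained (20.7%) and 13 lost (0.401%), whereas 1.67% of the windows without it gained. Its share grew with the size of the gain, from 8.25% of gains with a log2 fold change up to 2 to 18.2% between 2 and 3 and 24.5% of the 392 gains beyond 3. It was found in 16.9% of the gains of the least open class where 1.79% of all windows hold it, and in 8.77% to 11% of those of the other classes, where 0.836% to 0.984% do. Among other sites, the antioxidant response element, which NRF2 binds and which is written TGACNNNGC, was found in 12.9% of gains, 8.07% of losses and 9.85% of all windows. The C/EBP site, written TTGCNNAA, was found in 14.7% of gains and 14.9% of losses against 9.98% of all. The CREB site TGACGTCA was found in 0.124% of gains and 0.250% of all windows. The AP-1 and antioxidant sites as spelled can overlap, whereas a C/EBP-ATF match cannot itself be a C/EBP match.

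Among losses, the TEAD and AP-1 sites were more frequent than among all windows, and most so together. Windows with both were lost in 3.92% of 2423 cases, those with the TEAD site alone in 2.39%, those with the AP-1 site alone in 1.83%, and those with neither in 0.802%. Open windows hold both sites more often, so the shares were also taken within the most open class. There, the TEAD site was found in 13.7% of losses, 3.95% of gains and 5.97% of all windows, and the AP-1 site in 35.9%, 40.0% and 27.4%. The AP-1 site was thus frequent on both sides of the change in this class. The 116 losses beyond a log2 fold change of -2 held the TEAD site in 6.03% and the AP-1 site in 13.8%. The CArG box of SRF was found in 1.70% of losses, 0.798% of gains and 1.02% of all windows. The CTCF site, which marks boundaries of chromatin loops, was nearly absent from called windows, with 0.408% of gains and 0.0628% of losses against 1.51% of all. The xenobiotic response element of the aryl hydrocarbon receptor was found in 1.58% of gains and 1.48% of losses against 1.82% of all.

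**Figure D3:**
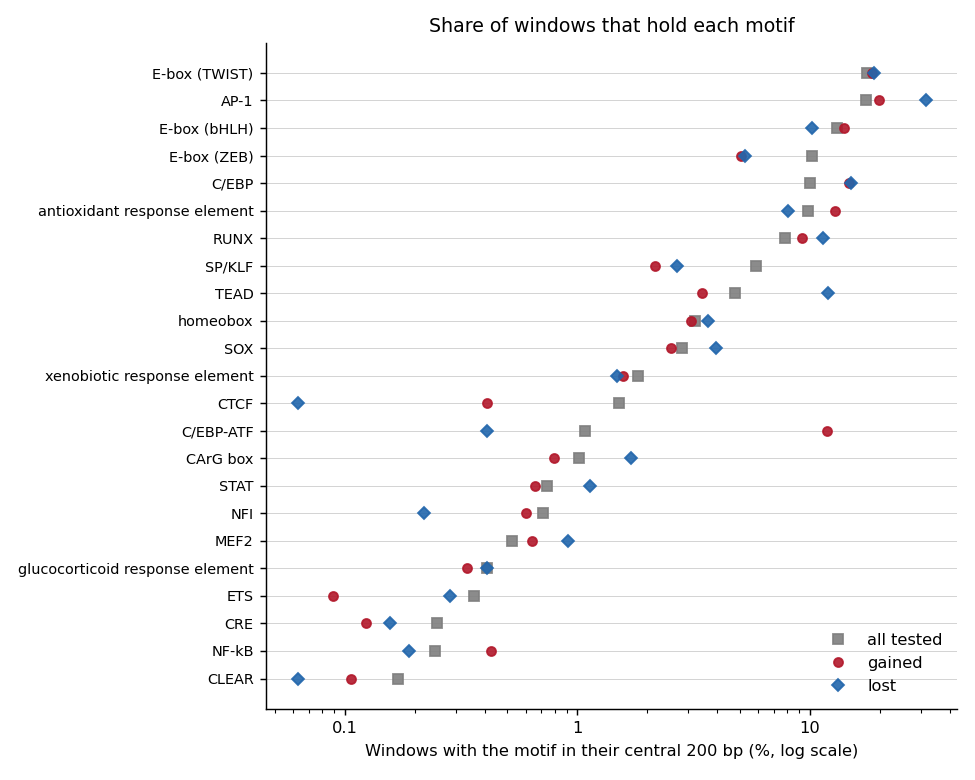
Percent of all tested (grey squares), gained (red circles) and lost windows (blue diamonds) that hold each of 23 motifs in their central 200 bp, on a log axis. The C/EBP-ATF site lies at 11.9% of gains against 1.08% of all windows, and the TEAD site at 12% of losses against 4.79%.

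Each library was also given a value over all tested windows, called or not. It is the mean log2(normalized count + 1) of all windows with a site minus that of all windows without it. The sites shown stood out among calls from the same 24 h libraries, so the 24 h values are no separate support. Only the 4 h libraries took no part in those calls. For the C/EBP-ATF site, this difference was -0.50, -0.51 and -0.51 in the 3 controls and 0.24, 0.20 and 0.23 in the 3 CK666 libraries. Windows with the site thus lay below the others in every control library and above them in every treated one, a shift of 0.73 on the log2 scale. In the separate 4 h experiment it was -0.59, -0.58 and -0.55 in the controls and -0.19, -0.19 and -0.21 with CK666, a shift of 0.38. For the TEAD site, the values at 24 h were 0.15, 0.18 and 0.19 in the controls and 0.04, 0.01 and 0.03 with CK666, and at 4 h 0.17 to 0.18 and 0.07 to 0.08. None of these CK666 and control groups overlapped, and each comparison gave p = 0.1 in the exact two-sided permutation test, the smallest that 3 libraries against 3 can give. For the AP-1 site the groups overlapped at 24 h, with 0.27, 0.35 and 0.37 in the controls and 0.28, 0.23 and 0.27 with CK666 (exact p = 0.2). At 4 h the AP-1 groups did not overlap, with 0.36 to 0.37 in the controls and 0.32 to 0.33 with CK666 (exact p = 0.1). At 24 h, control replicate 1, the shallowest library, held the low value of the controls for both the TEAD and the AP-1 site. The CytoD libraries, compared with the same controls, had means of -0.45 ± 0.012 (SD, n = 3) for the C/EBP-ATF site, 0.0023 ± 0.0053 for the TEAD site and 0.015 ± 0.015 for the AP-1 site.

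**Figure D4:**
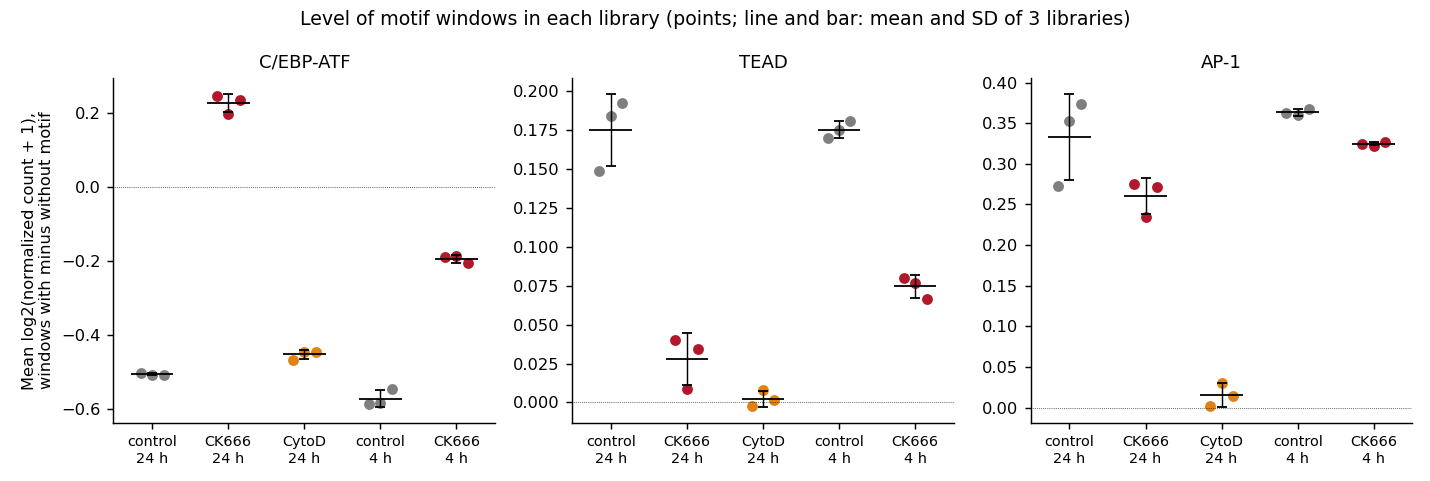
Mean log2(normalized count + 1) of windows with a motif minus that of windows without it, 1 point per library, with the mean and SD of each group of 3. C/EBP-ATF windows lie near -0.5 in the 24 h controls and near 0.2 with CK666, and near -0.2 after 4 h of CK666.

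Many of the windows called at 24 h already differed at 4 h, in libraries that took no part in the calls. Over the 4 h windows that overlap gained windows, the mean log2 CPM was 0.15, 0.16 and 0.18 in the 4 h controls and 0.85, 0.86 and 0.83 with CK666, a difference of 0.68. Over those that overlap lost windows it was 2.32, 2.33 and 2.32 in the controls and 1.97, 1.96 and 1.93 with CK666, a difference of -0.37. Neither pair of groups overlapped (exact two-sided permutation p = 0.1 each, the smallest possible). Of the 4801 gained windows with a tested 4 h window, 94.1% had a positive difference at 4 h and 18.5% were called as gains there, where 0.59% of all 4 h windows were. Of 3121 lost windows, 84.7% had a negative difference at 4 h and 5.32% were called as losses, where 0.427% of all were. The share of each sign over all windows is not given. In the least open class, the median 4 h log2 fold change was 0.90 for gained and 0.24 for all tested windows, with 21.5% and 1.41% called as gains. In the most open class it was -0.39 for lost and -0.04 for all tested windows, with 5.30% and 0.541% called as losses. Gained windows with the C/EBP-ATF site were called as gains at 4 h in 28.8% of 565 cases and those without it in 17.1% of 4236, with median 4 h log2 fold changes of 0.94 and 0.65.

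**Figure D5:**
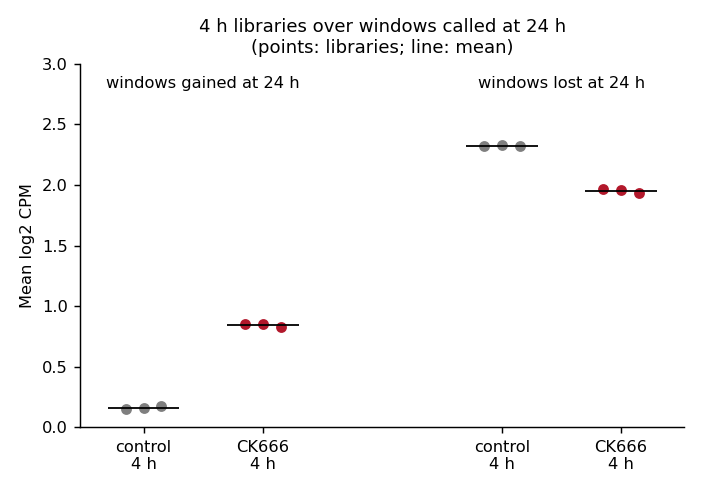
Mean log2 CPM of the 3 control (grey) and 3 CK666 libraries (red) of the 4 h experiment over 4 h windows that overlap windows gained (left) or lost (right) at 24 h. CK666 libraries lie at 0.83 to 0.86 above controls at 0.15 to 0.18 on the left, and at 1.93 to 1.97 below controls at 2.32 to 2.33 on the right.

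Of 18801 genes with a tested window, 2766 (14.7%) had a gain, 1441 (7.66%) a loss and 389 both. A gene had a median of 7 tested windows. Gene counts of the lists below are to be read beside these shares and the number of windows of each list. Trib3, Sqstm1 and Ero1l were 3 of the 10 genes with the most gained windows. All 5 called windows at Trib3, a pseudokinase induced by ATF4 and CHOP, were gains, out of 10 tested. One of them lies 5027 bp from the TSS (chromosome 2 from 152349059 to 152350417) and had 40.3, 40.9 and 34.0 normalized counts in the controls and 196, 173 and 212 with CK666, a log2 fold change of 2.33 (edgeR adjusted p = 9.06e-17). Sqstm1, which encodes the autophagy receptor p62, had 6 gains among 12 windows, including the window with its TSS (chromosome 11 from 50202450 to 50203950), from 24.7, 23.0 and 9.83 to 74.0, 50.5 and 86.5. Ero1l, the oxidase that drives disulfide formation in the endoplasmic reticulum, had 5 gains among 14 windows, the deepest of them 1337 bp from its TSS (chromosome 14 from 45319909 to 45322319), from 197, 164 and 183 to 606, 546 and 595. In each of these windows the lowest treated library lay above the highest control, as in 99.7% of all gains. The groups did not overlap in 25.3% of all tested windows. Clec2d, a C-type lectin gene, had the most gains, 9 of 29 windows over chromosome 6 from 129144929 to 129195879, with log2 fold changes of 1.06 to 2.60. It was followed by Nrcam, a cell adhesion molecule (6 of 43), Slc39a10, a zinc importer (6 of 51), Dst, a cytoskeletal linker (6 of 109), Sucnr1, the succinate receptor (5 of 21), Tmcc1 (5 of 25) and N4bp2l1 (5 of 36). None of these genes had a lost window. No gained window of Trib3, Sqstm1, Ero1l, Clec2d or Sucnr1 holds a C/EBP-ATF site in its central 200 bp. Nrcam, Slc39a10, Dst, Tmcc1 and N4bp2l1 each had 1 gained window that does. Genes overlap here, since 3 of the gained windows of Ero1l lie in Gpr137c and 3 of those of Sqstm1 in Mrnip.

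The unfolded protein response list holds chaperones and sensors of the endoplasmic reticulum and other genes of this response, Trib3 among them. It had a gain at 7 of 13 genes with tested windows and a loss at none, against 14.7% and 7.66% of all genes. Of its 168 windows, 12 gained (7.14%, against 1.88% of all), and the median log2 fold change was 0.16 over its windows against 0.02 over all tested windows. Trib3 alone held 5 of the 12 gains. The other genes with a gain were Dnajb9, a chaperone, with 2, and Herpud1, Sel1l, Atf6, Ern1 and Pdia4 with 1 each. No window of Hspa5, Hsp90b1, Calr, Xbp1, Ddit3 or Eif2ak3 was called. At Dnajb9, the window with the C/EBP-ATF site shown above had 46.8, 61.4 and 63.5 normalized counts in the controls and 159, 167 and 181 with CK666. The gained window at the TSS of Herpud1 (chromosome 8 from 94390331 to 94390877) was shallow, from 6.49, 1.70 and 2.68 to 32.8, 22.6 and 17.7, and holds a C/EBP-ATF and a TEAD site. Within 5 kb of a TSS, gains were left at 4 of the 7 genes.

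Lists of integrated stress response genes and of NRF2 targets were added after the gene and motif results had been seen, so their counts only describe these windows. Of 27 integrated stress response genes with tested windows, 13 had a gain and 3 a loss, against 14.7% and 7.66% of all genes. They held 23 gained and 5 lost windows of 362 (6.35% and 1.38%, against 1.88% and 1.06% of all), with a median log2 fold change of 0.24. The 5 gains of Trib3 are also in the unfolded protein response list, and the 2 of Slc7a11 also among the NRF2 targets. At Psat1, an enzyme of serine synthesis, a window in an untranslated part of its transcript (chromosome 19 from 15904598 to 15905189) had 106, 88.6 and 114 normalized counts in the controls and 521, 509 and 508 with CK666, a log2 fold change of 2.32 (edgeR adjusted p = 1.05e-28). The window with the TSS of Mars, the methionyl-tRNA synthetase (chromosome 10 from 127296873 to 127298134), went from 50.6, 69.9 and 54.5 to 222, 198 and 236. At Sesn2, an inhibitor of mTORC1 signalling, counts in the window with the C/EBP-ATF site shown above went from 32.5, 46.9 and 49.2 to 163, 154 and 190. Asns, Chac1, Mthfd2, Slc7a11, Gdf15, Ddit4, Xpot, Wars and Ppp1r15a also had 1 or 2 gains. Stc2, a secreted glycoprotein gene, went the other way with 3 losses, 1 of them from 453, 611 and 546 to 126, 140 and 149 (chromosome 11 from 31382100 to 31382667). Chac1 and Phgdh had 1 loss each. A lost window that holds the TSSs of Atf5, Il4i1 and Nup62 together (mean normalized counts of 533 and 252, log2 fold change -1.09) was assigned to Il4i1 and is not in these counts. The second gained window of Mars lies in Ddit3, the gene of CHOP, whose own assigned windows were not called.

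Of 16 NRF2 target genes, 9 had a gain and 2 a loss, against 14.7% and 7.66% of all genes. They held 18 gained and 2 lost windows of 198 (9.09% and 1.01%, against 1.88% and 1.06% of all), with a median log2 fold change of 0.31. The largest change was in an intron of Me1, the malic enzyme that yields NADPH (chromosome 9 from 86689284 to 86690126), from 2.60, 5.97 and 4.47 to 61.8, 67.0 and 87.5 normalized counts, a log2 fold change of 3.95 (edgeR adjusted p = 2.71e-13). Me1 also had 2 smaller gains and 1 loss, the window with the AP-1 site shown above, from 75.3, 71.6 and 59.9 to 9.36, 24.4 and 27.5. Near Gclm, the modifier subunit of the enzyme that starts glutathione synthesis, a window with an antioxidant response element (chromosome 3 from 122243319 to 122243878) went from 13, 0 and 7.15 to 66.5, 27.0 and 54.1. Gsta3, Slc7a11, Sqstm1, Gclc, Srxn1, Hmox1 and Ftl1 had gains too, and Gclc also had 1 loss. Sqstm1 alone held 6 of the 18 gains. No window of Nqo1, Txnrd1, Osgin1, Prdx1, Gsta1, Gpx2 or G6pdx was called.

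The AP-1 family list had gains at 4 of 13 genes and losses at none, with 8 of 232 windows gained (3.45%, against 1.88% of all) and a median log2 fold change of 0.12. Atf3, a member induced by many stresses, had 4 of these. The gain in its intron (chromosome 1 from 191181307 to 191181897) went from 9.09, 8.52 and 11.6 to 54.3, 61.8 and 54.1 normalized counts, a log2 fold change of 2.52. Its groups did not overlap, as in 99.7% of all gains. Fos had 2 gains (2.12 and 1.04), and Fosb (1.90) and Jdp2 (1.70), a repressor of AP-1, had 1 each. No window of Jun, Junb, Jund, Fosl1 or Fosl2 was called.

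Among genes of the fat cell fate, 10 of 18 had a gain, against 14.7% of all genes, and Nfia alone had a loss, beside 2 gains. The median gene had 7 tested windows and most of these genes had more, so the gene count alone says little. Of 469 windows, 15 gained and 1 was lost (3.20% and 0.213%, against 1.88% and 1.06% of all), and the median log2 fold change was 0.15. The largest change was near Lpl, which encodes lipoprotein lipase, 13631 bp from its TSS (chromosome 8 from 68866322 to 68866860), from 5.19, 9.38 and 3.57 to 37.5, 37.4 and 54.1 normalized counts. Within Pparg, the gene of the main regulator of fat cell formation, 2 of 55 windows gained (1.41 and 1.28). Near Cebpb, an early factor of this fate, 1 window went from 26.0, 40.1 and 34.0 to 98.3, 99.2 and 131, a log2 fold change of 1.68 (edgeR adjusted p = 1.60e-08). The TSS windows of Plin1, a coat protein of fat droplets, and Cd36, a fatty acid transporter, gained by 1.51 and 1.47. No window of Cebpa, Fabp4, Adipoq or Lipe was called, and gains within 5 kb of a TSS were found at 4 of the 10 genes.

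Genes of the bone fate were called on both sides, with 5 gains and 3 losses among 250 windows (2.0% and 1.2%, against 1.88% and 1.06% of all) of 14 genes and a median log2 fold change of -0.09. Runx2, the main regulator of osteoblast formation, had 1 gain (1.32) and 1 loss (-1.03), both in introns. Spp1 and Tnfrsf11b had 1 gain each (1.78 and 1.58), and Col1a2 had 2 losses (-1.09 and -1.0). The TSS window of Bglap, an osteocalcin gene, gained (1.73), but it has near-identical neighbouring copies with which reads may be shared, so that this value is uncertain. No window of Sp7, Alpl, Ibsp or Dlx5 was called.

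Among targets of YAP and TEAD, windows were lost near Ccn2, Ccn1 and Amotl2. Near Ccn2, the gene of connective tissue growth factor, a window 3492 bp from the TSS (chromosome 10 from 24599272 to 24600435) went from 114, 90.3 and 87.6 to 8.43, 23.5 and 29.5 normalized counts, a log2 fold change of -2.24 (edgeR adjusted p = 9.19e-10). Near Ccn1, its close relative, a window 3461 bp from the TSS (chromosome 3 from 145644596 to 145646520) went from 213, 128 and 158 to 63.7, 59.2 and 55.0, and near Amotl2, a regulator of YAP, one went from 404, 424 and 393 to 195, 173 and 193. The groups did not overlap in any of these windows, as in 99.2% of all losses. None of these windows holds the spelled TEAD site in its centre. Their log2 fold changes were also negative at 4 h (-2.48, -0.91 and -0.59) and with CytoD (-1.68, -1.83 and -1.33). Crim1 had 2 losses, and Ptpn14 and Myof had 1 loss and 1 gain each. The list as a whole was not one-sided, as 7 of 22 genes had a gain and 6 a loss, with 10 gained and 7 lost windows of 631 (1.58% and 1.11%, against 1.88% and 1.06% of all) and a median log2 fold change of 0.01. The gains included a window in Rbms3 from 67.5, 82.7 and 71.5 to 441, 423 and 464, which holds a C/EBP-ATF site, and one in Myof from 26.0, 23.0 and 22.3 to 172, 150 and 163.

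Targets of MRTF and SRF had gains at 5 of 19 genes and losses at 1, with 6 gained and 2 lost windows of 285 (2.11% and 0.702%, against 1.88% and 1.06% of all) and a median log2 fold change of -0.04. Both losses were at Fhl2, a LIM domain protein of actin fibres. The one 444 bp from its TSS (chromosome 1 from 43162913 to 43163517) went from 222, 193 and 227 to 65.5, 63.5 and 80.6 normalized counts, a log2 fold change of -1.62 (edgeR adjusted p = 6.21e-13). Gains were found at Vcl (2 windows), Myl9 (in an exon of Dlgap4), Flna, Zyx and Myh9, between 1.15 and 2.02. No window of the actin genes Acta1, Acta2, Actb and Actg2 or of Tagln, Cnn1 and Srf was called.

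Of the 10 genes of subunits of Arp2/3, the complex that CK666 inhibits, Arpc5l had 1 gain and Arpc5 1 loss among 137 windows (0.730% each, against 1.88% and 1.06% of all), with a median log2 fold change of -0.03. The gain in an intron of Arpc5l (chromosome 2 from 39010586 to 39011704) went from 62.3, 32.4 and 38.4 to 235, 232 and 225 normalized counts, a log2 fold change of 2.43 (2.26 at 4 h and -0.11 with CytoD). The loss in an intron of Arpc5 went from 199, 191 and 219 to 74.9, 75.7 and 89.4. Among Arp2/3 activators, 4 of 16 genes had a gain and 1 a loss, with 5 gained and 1 lost windows of 272 (1.84% and 0.368%, against 1.88% and 1.06% of all) and a median of 0.04. These were Abi1 (2 gains), Nckap1 and Cyfip2 of the WAVE complex, Wipf1, a partner of WASP, and the loss at Cttn, the gene of cortactin. Among formins, Daam1 had 2 gains and Fmn2 1, Diaph3 had 3 losses and Fmnl2 1, and Diaph2 had 1 of each, so that 4 windows gained and 5 were lost of 354 (1.13% and 1.41%, against 1.88% and 1.06% of all), with a median of 0.0036.

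Integrins and focal adhesion genes had gains at 9 of 22 and losses at 3, with 12 gained and 3 lost windows of 474 (2.53% and 0.633%, against 1.88% and 1.06% of all) and a median log2 fold change of -0.03. Gains were found at Itga2, Itga5, Itga8, Itgb8, Parva, Bcar1, Vcl, Zyx and, with 3 windows, Ptk2, which encodes focal adhesion kinase, and those of Vcl and Zyx are also in the MRTF and SRF list. Losses were found in introns of Itgav (-1.66), Itgb1 (-1.17) and Itgb3 (-1.14). The collagen list had 6 gains and 3 losses in 486 windows (1.23% and 0.617%, against 1.88% and 1.06% of all, median -0.08), with gains at Col15a1 (2), Col4a1, Col5a3, Col6a2 and Col14a1 and losses at Col1a2 (2, also counted for the bone fate) and Col12a1. The lamina and LINC complex list had 2 gains and 2 losses in 272 windows (0.735% each, against 1.88% and 1.06% of all, median -0.02), at Sun1 (1 of each), Syne1 and Syne3. Targets of the aryl hydrocarbon receptor had 1 gain in 98 windows (1.02%, against 1.88% of all, median 0.15), at Tiparp (1.19).

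Among the genes with the most lost windows, Zfp184, a zinc finger gene, had 9 losses among 15 windows. They lie side by side over chromosome 13 from 21906933 to 21937528, with log2 fold changes of -2.19 to -1.09. The deepest of them went from 145, 148 and 142 to 48.7, 44.4 and 49.1 normalized counts, and its CytoD and 4 h log2 fold changes were -1.63 and -1.24. Fstl1, a secreted glycoprotein gene, had 7 losses among 46 windows, including its TSS window. The deepest, in an intron (chromosome 16 from 37789789 to 37791285), went from 539, 571 and 650 to 276, 252 and 295. Tex14 had 5 losses among 18 windows, between -2.61 and -1.29. Nid1, which encodes the basement membrane protein nidogen 1, had 4 losses among 16 windows. One in an intron (chromosome 13 from 13474900 to 13475460) went from 294, 330 and 277 to 78.7, 77.4 and 59.0, a log2 fold change of -2.06 (edgeR adjusted p = 7.17e-20). The loss with the 3 TEAD sites shown above went from 144, 137 and 115 to 35.6, 38.3 and 61.9. Cald1, the gene of the actin-binding protein caldesmon, had 5 losses among 65 windows, and 3 of them hold a TEAD or an AP-1 site. Apob (5 of 33), Frmd4a (5 of 98), AI597479 (4 of 14), Pik3cb (4 of 24) and Cldn14 (4 of 26) followed, and none of these 10 genes had a gain.

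Gained and lost windows also lay close to others of their kind. The nearest tested neighbour of a gained window had a positive log2 fold change in 66.3% of cases and was itself gained in 6.22%, against 51.6% and 1.80% for all windows. The neighbour of a lost window had a negative change in 64.1% and was itself lost in 4.59%, against 48.4% and 1.09%. In segments of 1 Mb, the most gains were 13 of 162 windows on chromosome 2 from 115000001 to 116000000, around Meis2, and 13 of 297 from 145000001 to 146000000, around Slc24a3 and Rin2. Losses were denser, with 16 of 109 windows and no gain on chromosome 13 from 21000001 to 22000000, which holds the Zfp184 block, and 16 of 214 on chromosome 15 from 43000001 to 44000000, around Rspo2, a Wnt signalling agonist. Over whole chromosomes, gains ranged from 1.39% of windows on chromosome 19 to 3.29% on chromosome X, and losses from 0.782% on chromosome 10 to 1.88% on chromosome X. Gained windows had a median GC content of 43.5% and lost ones 42.8%, against 45.9% of all.

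CytoD also acts on actin, but by capping filaments, and its libraries were compared with the same 3 controls, so its values are only set side by side. With CytoD, 2.38% of all windows were called, 0.98% as gains and 1.4% as losses. Over the windows gained with CK666, the median normalized count was 19.7 in the controls, 60.6 with CK666 and 26.5 with CytoD. Over the lost windows it was 84.6, 35.7 and 54.3. The App and Sash1 windows had log2 fold changes of -0.08 and 0.32 with CytoD, and the gained windows of Trib3, Ero1l and Sesn2 described above 0.18, 0.04 and -1.01. The gained TSS window of Gsta3 was also called with CytoD (1.02, edgeR adjusted p = 0.000116), and so were 4 of the 9 gained windows of Clec2d. Gained windows near Slc27a6 and Tm9sf2, the largest with CK666 (5.52 and 5.06), had 1.61 and 1.26 with CytoD and were not called (edgeR adjusted p = 0.0666 and 0.0707). The lost windows near Fhit and Trappc6b had -2.51 and -2.30.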

How the data were processed

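ATAC-seq counts of MSCs after 24 h without treatment or with CK666 (3 libraries each) were analysed, beside 3 CytoD libraries and the 4 h experiment. The authors processed the reads with PEPATAC, bowtie2 and MACS2, merged peaks across replicates and deposited raw counts per window, with mm10 named in the submitters' processing notes. Their versions and settings were not given in the sources used here. From the 2 tables, 15 columns (siRNA and NIH 3T3 libraries) were not used. No window ran past a GRCm38 chromosome end.

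Control, CK666 and CytoD libraries of 24 h entered 1 model of edgeR 4.0.16 (R 4.3.3), after its default filter on low counts and TMM scaling, which takes most windows as unchanged. Calls needed a Benjamini-Hochberg p under 0.01 and at least 1 log2 unit of change. Normalized counts are scaled to 1 library size. DESeq2 1.42.0, other scalings and filters, removal of GC trends, a replicate block and leaving out each library were alternatives. Python 3.11.15, numpy 2.4.6, pandas 2.3.3, scipy 1.17.1, matplotlib 3.10.9 and bedtools 2.31.1 were also used, and the fit was tested on simulated data.

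Named windows are the 6 largest gains and losses overall and with a TSS, and the largest per openness class, among called windows whose normalized counts average 50 or more and whose groups do not overlap. Named genes are the 10 with the most gained and lost windows, and segments are those with the most calls. A window with several TSSs was assigned to the TSS nearest its centre. Windows, lists and motifs were chosen with earlier results of these data known. The integrated stress response and NRF2 lists and the motif search were added after gene results or files were seen. Some windows and genes met by these rules are not reported here.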

Additional observations from a re-analysis of the deposited data

How the results depend on the processing

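Gains numbered 5641 and losses 3184, and other fits gave 4476 and 2995 (DESeq2), 4684 and 2376 (GC trend removed) and 4173 to 4939 and 2672 to 3436 (1 library left out). The numbers of replicates do not pair the libraries, since same-numbered ones deviated together with correlations of -0.0154 to 0.0277. With a replicate block, 5464 windows gained and 3070 were lost, and with the block and the GC trend removed 3925 and 2026. Lost windows held a TSS in 3.16% of cases with the GC trend removed (1.16% as reported), which is above the share of gains in that fit (1.56%) and not below it as reported (1.63%), and in 1.02% to 1.27% with 1 library left out. The least open class held 32.6% of gains as reported, 28.8% at a mean of at least 20 counts, 30.1% with the GC trend removed, 34.5% with classes of the 24 h controls and 29.6% to 32.8% with 1 library left out. The most open class held 64.5% of losses as reported, 68.6% with DESeq2, 73.5% with the GC trend removed, 83.9% with classes of the 24 h controls and 69.5% to 70.9% with 1 library left out. With those classes, the share of counts in the least open one differed by 1.64 percentage points (0.821 as reported). Scaled by total counts only, the 4 h differences were 0.708 and -0.346 (0.685 and -0.369 as reported). The cause of these shifts was not tested. With genes taken within 5 kb or 100 kb, 4 or 6 of the 10 genes with the most gains and 1 or 6 of those with the most losses were named again. Over all fits, 9.31% to 12.3% of gains held the C/EBP-ATF site and 11.8% to 12.7% of losses the TEAD site. With classes from the 4 h peak with the most overlap alone, the least open class held 32.6% of gains and the most open 65.2% of losses. These last 2 alternatives were added after the data were seen. Whether depth sets the recovery of falls was not tested.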
